A study of Saccharomyces cerevisiae with 4 samples.

Results

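The cytosolic small ribosomal subunit of budding yeast (Saccharomyces cerevisiae) holds 33 proteins when Asc1, the yeast RACK1, is counted with them. Their genes were taken by name from the first column of the deposited expression table, as RPS0A to RPS31 and ASC1. All 57 were listed, among 6484 features in all. Of the 57, 48 form 24 pairs of A and B copies (paralogs left by an ancient genome duplication that encode the same or nearly the same protein), and 9 have no paralog.

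The small subunit binds the mRNA, scans for the start codon and holds the decoding centre, where codons are matched to transfer RNAs. Its head, body and platform carry proteins that line the mRNA entry and exit channels, touch the transfer RNAs or bridge to the large subunit. Genes for cytosolic ribosomal proteins are among the most strongly transcribed in growing yeast. They are controlled together through the factors Rap1, Fhl1, Ifh1 and Sfp1, which act under the TORC1 and protein kinase A pathways, and they are known to be turned down when nutrients run out.

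The strain labelled as a YGP1 deletion, with the genotype BGL-6Kl; ΔYGP1, was set against its parent BGL-6Kl, with 2 libraries each, biological replicates by their labels. Whatever BGL-6Kl itself carries is shared by both strains, and the labels used here do not spell it out. Cultures grew for 48 h in YPD, a rich glucose medium, at 30 °C and 200 rpm without treatment, and the series gives this as the first time at which BGL activity on the cells clearly differed. The comparison asks which transcripts differed then. YGP1, a gene for a secreted glycoprotein, averaged 18171 in the deletion strain, against 62469.5 in the parent. It was still read at 29.1% of the parental level in the strain labelled as its deletion (adjusted p = 2.88e-08 from the authors' deposited table). That strain is called the deletion strain below.

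The deposited table gives 1 value per strain and gene, the mean over its libraries of read counts divided by a size factor, called normalised read count here. Because each library adds whole reads, each worth a fixed step, the reads behind a mean could be worked back for each library. That gave exactly 1 solution in both strains for all 57 genes and for 6184 of 6484 features. The recovered reads summed to 10154385 and 7419301 in deletion libraries A and B (6197 features), and to 15024611 and 12585047 for parental A and B (6371 features). Each small subunit gene had 174 to 6788 reads per library. Letter A marks the library of a strain with more reads and says nothing of labelled replicate numbers, so A of one strain is not paired with A of the other. Library values below are normalised read counts, A first and B second. "Passed" means an adjusted p below 0.05 over all features in the authors' own test. P-values reflect no spread beyond that of these 2 libraries per strain, which the limma fit below also pools over features. How the authors' test estimated spread is not given in the sources used here.

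Most small subunit genes were lower in the deletion strain, and none was called higher. The mean was lower for 56 of 57 genes, and 39 were at least 2-fold lower, where 10.2% of all features were that much lower. By the authors' deposited calls, 29 of 57 genes passed as lower (50.9%) and 0 as higher, where 10.3% of all features passed as lower. Of the 28 genes that did not pass, 13 were nevertheless at least 2-fold lower. The median log2 fold change of the 57 genes was -1.18, a 2.27-fold lower level, with quartiles at -1.35 and -0.96. The median over 5991 features with a mean of at least 10 was 0.02. Both deletion libraries lay below both parental libraries for 51 genes, where 33.0% of the recovered features did so. In the other 6 (RPS18A, RPS21A, RPS22A, RPS27A, RPS28A and RPS30A) the libraries of the strains overlapped.

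Summed over the 57 genes, the normalised read count was 48007 and 43306 in the deletion libraries, against 81099 and 117202 in the parental libraries. Both deletion libraries were lower, and the strain sums differed 2.17-fold. The genes held 0.221% of the summed signal in the deletion strain, against 0.432% in the parent. In bulk RNA, fewer cells that carry these transcripts and less of them per cell cannot be told apart. The normalisation assumes that most features are alike. If libraries were instead scaled to equal totals of recovered reads, the median of all fitted features moved to 0.14 and that of the 57 genes was -1.02. RPS27A then joined RPS30A on the higher side, and the other 55 genes stayed lower.

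A limma fit to the 4 recovered libraries called 45 of the 57 genes lower and 0 higher, where 14.9% of 6116 fitted features were called lower. All 29 genes that passed in the authors' test were among the 45. The 16 others included RPS4A, RPS6A, RPS10A, RPS12, RPS13, RPS19A, RPS20, RPS21B, RPS23A, RPS24A, RPS28B, RPS29B and RPS30B. The fit uses the same 4 libraries as the authors' values and is no separate check. With either deletion library left out 0 of the 57 genes and 0 of all 6116 features passed in either direction. The lowest adjusted p of a small subunit gene in limma was then 0.0585 without deletion library A, with 41 genes at an unadjusted p below 0.05, and 0.0612 without deletion library B, with 33. Without parental library B 20 passed, where 404 of all 6116 features were called lower, and without parental library A 51, where 692 were. With all 4 libraries 911 features were called lower.

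The small subunit genes also varied together between libraries of the same strain. Deletion library A exceeded deletion library B in 46 of 57 genes, with a median log2 difference of 0.20. Parental library B exceeded parental library A in 56 of 57 genes, all but RPS27A, with a median log2 difference of 0.57 and a range of -0.20 to 1.08. Over the 5267 features with at least 50 reads in every library, the medians were 0.08 for deletion A over B and -0.01 for parental B over A. Of these features 57.5% were higher in deletion A than in deletion B, and 49.0% were higher in parental B than in parental A. The parental libraries thus differed in these genes in one direction, and the size of the strain difference depends on which parental library is used. Against parental library A the median log2 difference was -0.73 for deletion library A and -0.91 for deletion library B. Against parental library B the same medians were -1.34 and -1.50. What made the parental libraries differ was not tested.

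**Figure D1:**
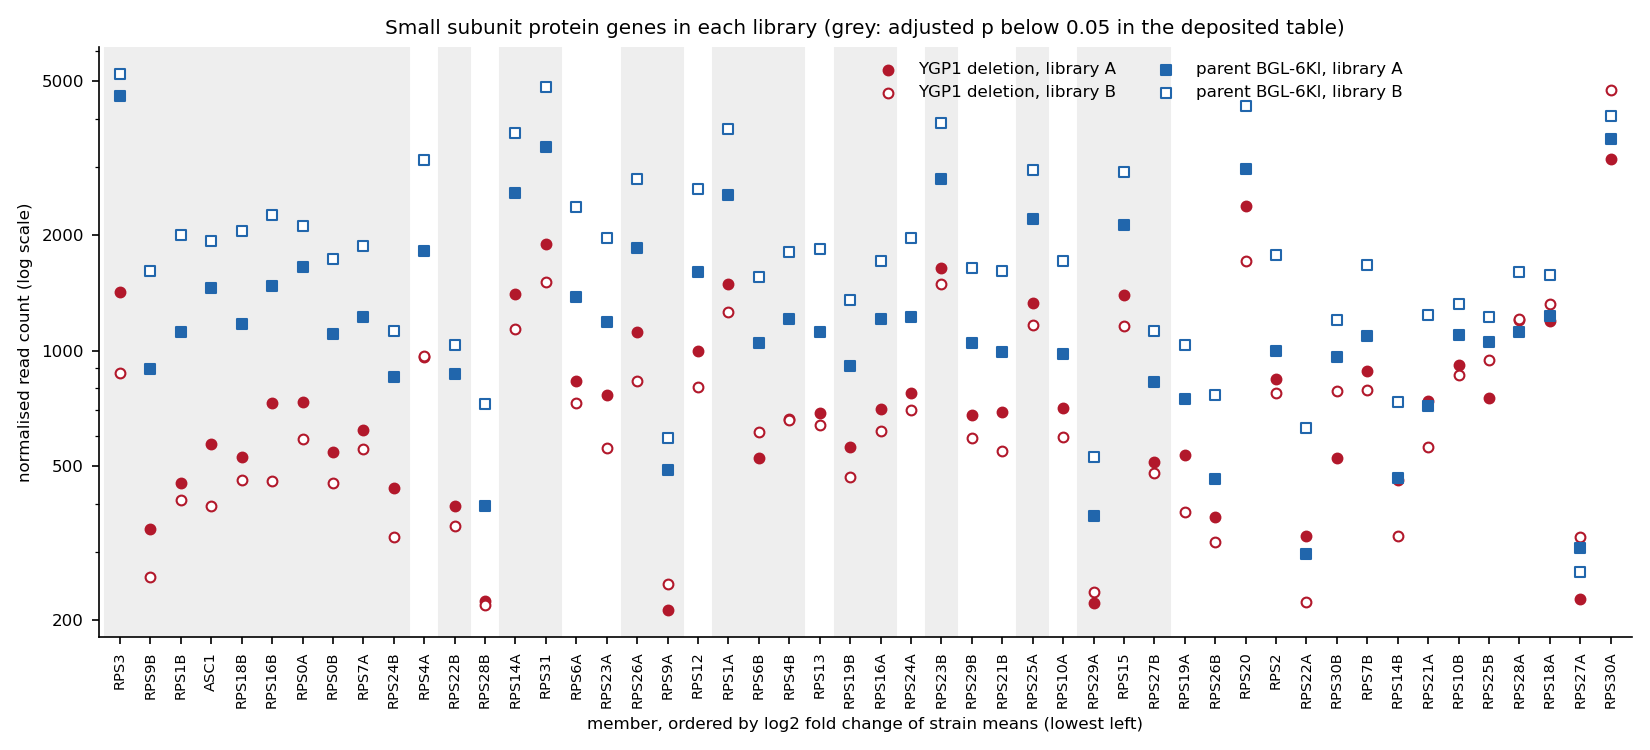
Normalised read count (log scale) of 50 of the 57 small subunit genes in deletion libraries A and B (circles) and parental libraries A and B (squares), ordered by the log2 fold change of the strain means; grey bands mark the 25 of them with an adjusted p below 0.05 in the authors' deposited table. Circles lie below squares in 44 of the 50, and the 6 genes with overlap lie toward the right, up to RPS30A.

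Among the 9 genes without a paralog 5 passed as lower, and in all 9 both deletion libraries lay below both parental ones. RPS3 had the lowest fold change of the 57. Its protein, uS3, sits in the head at the mRNA entry channel. RPS3 (YNL178W) had 1420.4 and 872 in the deletion libraries, against 4573 and 5233 in the parental libraries. The strain means differed 4.28-fold (adjusted p = 5.09e-10 from the authors' deposited table), and both deletion values were far below both parental ones. With its standard error, the log2 difference in limma was -2.13 ± 0.25.

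ASC1 (YMR116C), the RACK1 homologue on the back of the head and a scaffold for signalling proteins and for quality control of collided ribosomes, also fell. It had 571 and 394 in the deletion libraries, against 1455 and 1921 in the parental libraries, a 3.50-fold lower mean (adjusted p = 1.73e-05 from the authors' deposited table). The ASC1 intron holds the small nucleolar RNA gene SNR24, and without known strandedness or feature rules, reads of the intron could be assigned to either. RPS31 (YLR167W) encodes ubiquitin fused to eS31, which are cut apart after translation. RPS31 had 1896 and 1509.8 in the deletion libraries, against 3380.0 and 4822 in the parental libraries, and was 2.41-fold lower (adjusted p = 0.0117 from the authors' deposited table). RPS15 (YOL040C), for uS19, whose tail reaches the decoding site, had 1395 and 1156 in the deletion libraries, against 2124 and 2912 in the parental libraries. It was 1.97-fold lower (adjusted p = 0.0226 from the authors' deposited table).

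The 4 other genes without a paralog did not pass. RPS12 (YOR369C), for eS12 in the beak of the head, had 998 and 802 in the deletion libraries, against 1604 and 2627 in the parental libraries. RPS13 (YDR064W), for uS15 in the body, had 689.8 and 643 in the deletion libraries, against 1118 and 1841 in the parental libraries. RPS20 (YHL015W), for uS10 in the head, had 2375 and 1708 in the deletion libraries, against 2958 and 4316 in the parental libraries. RPS2 (YGL123W), for uS5, known from mutants that alter the accuracy of decoding, had 844 and 776 in the deletion libraries, against 999.98 and 1774 in the parental libraries. In each of these genes parental library B was the higher, and all deletion values stayed below both parental ones. The means were 2.35-fold lower for RPS12, 2.22-fold lower for RPS13, 1.78-fold lower for RPS20 and 1.71-fold lower for RPS2, with adjusted p from 0.0896 to 0.361 from the authors' deposited table.

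The 24 pairs make 48 of the 57 genes. Summed over both copies, which is the measure least affected by how reads of similar copies are assigned, all 24 pairs were lower in the deletion strain. In 23 pairs, all but RPS30, the deletion sums also lay below both parental sums. Log2 fold changes of the sums ran from -1.76 for RPS9 to -0.08 for RPS30, with a median of -1.15. Both copies passed in 5 pairs, 1 copy in 14 and neither in 5. Copies are alike but seldom identical over long runs. Coding sequences of the copies were 84.3% to 99.2% identical, with a median of 92.7%, and 20 of 24 pairs shared no identical window of 100 bases. The exceptions included RPS6 (53.4% of windows shared), RPS24 (17.2%) and RPS4 (13.2%), where values of single copies are uncertain. How the authors assigned reads that match both copies is not given in the sources used here.

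In the body of the subunit, RPS9 and RPS0 fell in both copies. RPS9 encodes uS4, one of the first proteins to join the ribosomal RNA, which lines the mRNA entry and affects decoding accuracy. It had the lowest pair sum. RPS9A (YPL081W) had 212 and 247 in the deletion libraries, against 489 and 592 in the parental libraries. RPS9B (YBR189W) had 343 and 259 in the deletion libraries, against 893 and 1608 in the parental libraries. RPS9A was 2.36-fold lower and RPS9B 4.16-fold lower in the deletion strain (adjusted p = 0.00234 and 0.0316 from the authors' deposited table). RPS0 encodes uS2, related to the laminin receptor precursor of animals and needed for the last steps of small ribosomal RNA processing. Its copies differed by almost the same fold. RPS0A (YGR214W) had 733 and 589.9 in the deletion libraries, against 1648 and 2109 in the parental libraries. RPS0B (YLR048W) had 547 and 452 in the deletion libraries, against 1106 and 1726 in the parental libraries. The strain means were 2.84-fold lower for RPS0A and 2.84-fold lower for RPS0B, with adjusted p = 2.51e-05 and 0.0209 from the authors' deposited table. In RPS9 and RPS0 no library of the deletion strain reached the parental range in either copy.

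In other body pairs 1 copy passed although both copies were lower by similar folds. RPS4 encodes eS4. RPS4A (YJR145C) had 960.0 and 970.1 in the deletion libraries, against 1813 and 3133 in the parental libraries. RPS4B (YHR203C) had 665 and 661 in the deletion libraries, against 1206 and 1799.5 in the parental libraries. RPS4B was 2.27-fold lower and passed (adjusted p = 0.0281), whereas RPS4A was 2.56-fold lower and did not (adjusted p = 0.0863 from the authors' deposited table). RPS6 encodes eS6, which is phosphorylated on its tail when TORC1 is active. RPS6A (YPL090C) had 833 and 732 in the deletion libraries, against 1378 and 2358 in the parental libraries. RPS6B (YBR181C) had 526 and 615 in the deletion libraries, against 1048 and 1552 in the parental libraries. RPS6B, 2.28-fold lower, passed at adjusted p = 0.0239, and RPS6A, 2.39-fold lower, did not pass at adjusted p = 0.110 from the authors' deposited table. RPS24 encodes eS24. RPS24A (YER074W) had 775 and 699 in the deletion libraries, against 1221 and 1956 in the parental libraries. RPS24B (YIL069C) had 438 and 328 in the deletion libraries, against 853 and 1122 in the parental libraries. RPS24B was 2.58-fold lower and passed (adjusted p = 0.000591), whereas RPS24A was 2.16-fold lower and did not (adjusted p = 0.0944 from the authors' deposited table). RPS4, RPS6 and RPS24 all have shared windows of 100 bases. In each the copy that did not pass also had both deletion values below both parental ones.

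RPS23, for uS12, a protein of the decoding centre itself, behaved in the same way. RPS23A (YGR118W) had 765 and 557 in the deletion libraries, against 1187 and 1963 in the parental libraries. RPS23B (YPR132W) had 1639.9 and 1489.7 in the deletion libraries, against 2789 and 3896 in the parental libraries. RPS23B, 2.14-fold lower, passed at adjusted p = 0.0127, and RPS23A, 2.38-fold lower, did not pass at adjusted p = 0.104 from the authors' deposited table. RPS22, for uS8, a protein that binds the central domain of the ribosomal RNA, did not. RPS22A (YJL190C) had 329 and 222 in the deletion libraries, against 296 and 628 in the parental libraries. RPS22B (YLR367W) had 395 and 350.1 in the deletion libraries, against 869 and 1034 in the parental libraries. Of the strain means, that of RPS22B was 2.55-fold lower with adjusted p = 0.000375, and that of RPS22A 1.68-fold lower with adjusted p = 0.590 from the authors' deposited table. In RPS22A deletion library A lay above parental library A, while RPS22B was separated. An intron of RPS22B holds the small nucleolar RNA gene SNR44. RPS7 encodes eS7, a target of the ubiquitin ligase Not4. RPS7A (YOR096W) had 623 and 553 in the deletion libraries, against 1221 and 1864 in the parental libraries. RPS7B (YNL096C) had 884 and 791 in the deletion libraries, against 1088 and 1672 in the parental libraries. RPS7A was 2.62-fold lower and passed (adjusted p = 0.0202), whereas RPS7B was 1.65-fold lower and did not (adjusted p = 0.230 from the authors' deposited table). RPS21, for eS21, had 1.79-fold lower summed values with neither copy past the threshold. RPS21A had a log2 fold change of -0.59 and RPS21B one of -1.07, and only RPS21B had separated libraries.

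In the head, RPS16 fell in both copies. It encodes uS9, whose tail touches the transfer RNA in the peptidyl site. RPS16A (YMR143W) had 706 and 619 in the deletion libraries, against 1207 and 1704 in the parental libraries. RPS16B (YDL083C) had 732 and 459 in the deletion libraries, against 1469 and 2249.9 in the parental libraries. RPS16A was 2.20-fold lower and RPS16B 3.12-fold lower in the deletion strain (adjusted p = 0.0142 and 0.0155 from the authors' deposited table). RPS19, for eS19, whose human counterpart is mutated in Diamond-Blackfan anaemia, was lower in both copies by about the same fold. RPS19A (YOL121C) had 534 and 382 in the deletion libraries, against 751 and 1035 in the parental libraries. RPS19B (YNL302C) had 563 and 468 in the deletion libraries, against 913 and 1352 in the parental libraries. RPS19B, 2.20-fold lower, passed at adjusted p = 0.0391, and RPS19A, 1.95-fold lower, did not pass at adjusted p = 0.0530 from the authors' deposited table. RPS29, for the zinc-binding uS14, was likewise lower in both copies. RPS29A (YLR388W) had 220.4 and 236 in the deletion libraries, against 372 and 530.3 in the parental libraries. RPS29B (YDL061C) had 681 and 594 in the deletion libraries, against 1046 and 1641 in the parental libraries. Of the strain means, that of RPS29A was 1.98-fold lower with adjusted p = 0.0305, and that of RPS29B 2.11-fold lower with adjusted p = 0.0887 from the authors' deposited table. In RPS16, RPS19 and RPS29 every deletion value lay below both parental values of its copy.

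The sums of RPS25 and RPS10 differed less than those of most pairs. RPS25 encodes eS25, which certain viral RNAs need to recruit the subunit. RPS25A (YGR027C) had 1329.7 and 1167 in the deletion libraries, against 2196 and 2948 in the parental libraries. RPS25B (YLR333C) had 752 and 944 in the deletion libraries, against 1050.2 and 1220.4 in the parental libraries. RPS25A was 2.06-fold lower and passed (adjusted p = 0.00663), whereas RPS25B was 1.34-fold lower and did not (adjusted p = 0.319 from the authors' deposited table). RPS10 encodes eS10 at the mRNA entry. RPS10A (YOR293W) had 710.2 and 597 in the deletion libraries, against 979 and 1706 in the parental libraries. RPS10B (YMR230W) had 919 and 863 in the deletion libraries, against 1096 and 1321 in the parental libraries. Neither RPS10A, 2.05-fold lower, nor RPS10B, 1.36-fold lower, passed (adjusted p = 0.210 and 0.344 from the authors' deposited table). In RPS25 and RPS10 the A copy was the lower of the pair in fold change, and all deletion values lay below the parental ones.

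On the platform, RPS1 fell in both copies. It encodes eS1, beside the channel where mRNA leaves. RPS1A (YLR441C) had 1488 and 1261 in the deletion libraries, against 2531 and 3755 in the parental libraries. RPS1B (YML063W) had 452 and 409 in the deletion libraries, against 1117 and 1998 in the parental libraries. The strain means were 2.29-fold lower for RPS1A and 3.62-fold lower for RPS1B, with adjusted p = 0.0303 and 0.0411 from the authors' deposited table. RPS14 encodes uS11, next to the cleft where mRNA and transfer RNA are held. Its protein is known to hold back splicing of the RPS14B transcript. RPS14A (YCR031C) had 1399 and 1139.5 in the deletion libraries, against 2569 and 3668 in the parental libraries. RPS14B (YJL191W) had 461 and 330.1 in the deletion libraries, against 468 and 734 in the parental libraries. RPS14A was 2.46-fold lower and passed (adjusted p = 0.00942), whereas RPS14B was 1.52-fold lower and did not (adjusted p = 0.443 from the authors' deposited table). RPS26 encodes eS26, which contacts mRNA just upstream of the start codon. RPS26A (YGL189C) had 1116 and 832 in the deletion libraries, against 1843 and 2786 in the parental libraries. RPS26B (YER131W) had 369.8 and 318 in the deletion libraries, against 463 and 768 in the parental libraries. RPS26A, 2.38-fold lower, passed at adjusted p = 0.0419, and RPS26B, 1.79-fold lower, did not pass at adjusted p = 0.255 from the authors' deposited table. Values of RPS14B and RPS26B were separated between the strains, though the nearest libraries were close.

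In RPS18, RPS28, RPS27 and RPS30 the strain means of the A copy differed by at most 1.13-fold, while the B copy was at least 1.65-fold lower. The difference between copies was largest in RPS18, at 1.54 on the log2 scale, then RPS28 at 1.16, RPS27 at 0.92 and RPS9 at 0.82, with RPS30 at 0.78. Over all 24 pairs its median size was 0.49, and in 7 pairs it was under 0.25. The coding stretches below show how far copies of the 3 widest pairs can be told apart, bases that differ being in capitals. They are from RefSeq R64, 5′ to 3′ on the coding strand, and counted from the first base of the start codon.
RPS18A (bases 187 to 276): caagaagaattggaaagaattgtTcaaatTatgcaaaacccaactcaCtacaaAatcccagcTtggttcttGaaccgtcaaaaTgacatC
RPS18B (bases 187 to 276): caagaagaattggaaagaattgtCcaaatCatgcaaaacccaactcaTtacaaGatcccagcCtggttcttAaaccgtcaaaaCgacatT
RPS28A (bases 4 to 93): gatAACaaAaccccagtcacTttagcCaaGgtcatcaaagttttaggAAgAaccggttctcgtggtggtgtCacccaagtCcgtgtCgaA
RPS28B (bases 4 to 93): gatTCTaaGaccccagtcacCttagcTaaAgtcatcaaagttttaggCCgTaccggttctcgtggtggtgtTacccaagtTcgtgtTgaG
RPS27A (bases 130 to 219): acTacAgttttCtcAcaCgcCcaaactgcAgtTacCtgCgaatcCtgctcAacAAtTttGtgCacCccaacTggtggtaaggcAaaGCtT
RPS27B (bases 130 to 219): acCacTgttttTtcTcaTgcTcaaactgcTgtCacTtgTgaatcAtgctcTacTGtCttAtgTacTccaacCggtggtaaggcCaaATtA
RPS18A and RPS18B differ at 23 of 441 coding bases, RPS28A and RPS28B at 24 of 204, and RPS27A and RPS27B at 39 of 249. The longest stretches without a difference were 56, 35 and 23 bases in RPS18, RPS28 and RPS27, so a read of 100 bases inside the coding sequence would meet at least 1 difference. The read length is not given in the sources used here.

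RPS18 encodes uS13, which bridges the head to the large subunit. RPS18A (YDR450W) had 1191 and 1324 in the deletion libraries, against 1231 and 1575 in the parental libraries. RPS18B (YML026C) had 529.8 and 461 in the deletion libraries, against 1170.5 and 2049.6 in the parental libraries. The copies thus parted: RPS18A values of the strains overlapped (log2 fold change -0.16, adjusted p = 0.786), and RPS18B was 3.25-fold lower (adjusted p = 0.0485 from the authors' deposited table). In limma the log2 difference was -0.15 ± 0.21 (SE) for RPS18A and -1.65 ± 0.27 (SE) for RPS18B. RPS18A made up 69.2% and 74.2% of the pair's normalised read count in the deletion libraries, against 51.3% and 43.5% in the parental libraries. RPS28 encodes eS28 near the mRNA exit, and its protein is known to destabilise the RPS28B transcript. RPS28A (YOR167C) had 1200.0 and 1206 in the deletion libraries, against 1115 and 1599 in the parental libraries. RPS28B (YLR264W) had 224 and 218 in the deletion libraries, against 394 and 724 in the parental libraries. RPS28A overlapped between the strains (log2 fold change -0.17, adjusted p = 0.793 from the authors' deposited table), while RPS28B, 2.53-fold lower, did not overlap and missed the threshold (adjusted p = 0.139 from the authors' deposited table). The share of RPS28A was 84.3% and 84.7% in the deletion libraries, against 73.9% and 68.8% in the parental libraries.

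RPS27 encodes eS27, a zinc-binding protein of the platform. RPS27A (YKL156W) had 226 and 328 in the deletion libraries, against 306 and 267 in the parental libraries. RPS27B (YHR021C) had 515 and 481 in the deletion libraries, against 830.3 and 1123 in the parental libraries. RPS27A overlapped (log2 fold change -0.05, adjusted p = 0.891), and RPS27B passed at 1.96-fold lower (adjusted p = 0.0140 from the authors' deposited table). The RPS27A share was 30.5% and 40.5% in the deletion libraries, against 27.0% and 19.2% in the parental ones. RPS30 encodes eS30 at the shoulder of the body. In human cells its counterpart is made fused to a ubiquitin-like protein. RPS30A (YLR287C-A) had 3143 and 4763 in the deletion libraries, against 3551 and 4057 in the parental libraries. RPS30B (YOR182C) had 526 and 783 in the deletion libraries, against 963 and 1198 in the parental libraries. RPS30A was the 1 gene of the 57 with a higher mean in the deletion strain, with a log2 fold change of 0.06 and deletion libraries on either side of the parental ones (adjusted p = 1 from the authors' deposited table). RPS30B was 1.65-fold lower, separated and just short of the threshold (adjusted p = 0.0542 from the authors' deposited table). Per kilobase of coding sequence RPS30A was also the most abundant of the 57, at 20588 in the deletion strain, against 19810 in the parent. The median of the 57 on that scale was 1461 in the deletion strain, against 3244 in the parent.

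**Figure D2:**
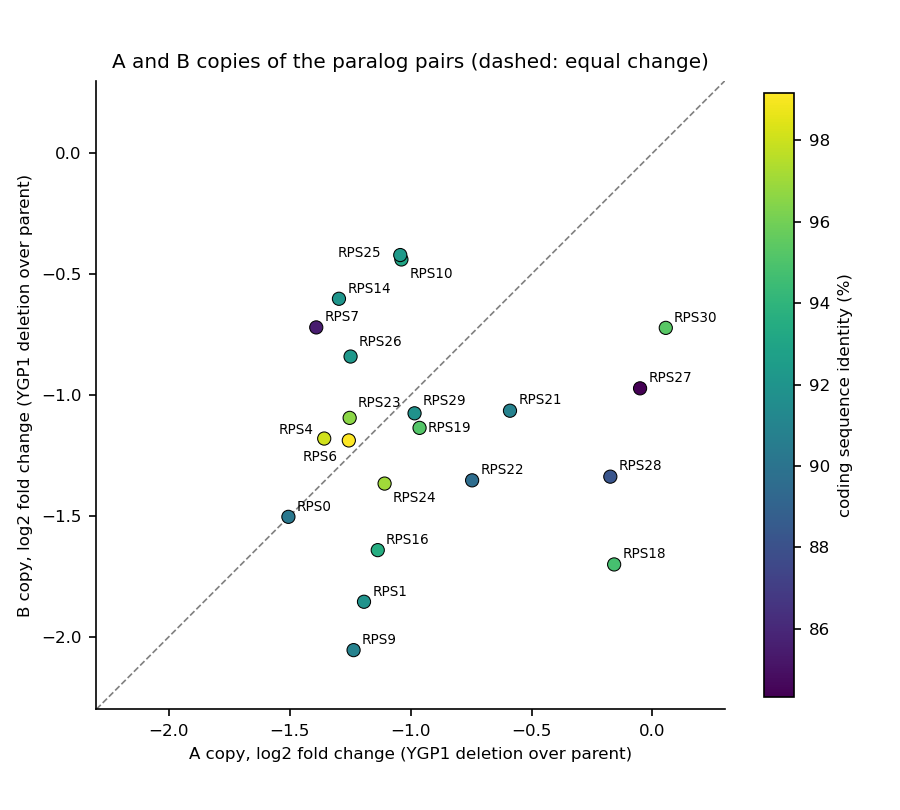
Log2 fold change (YGP1 deletion over parent) of the A copy (horizontal) against the B copy (vertical) for 21 of the 24 pairs, coloured by coding sequence identity in percent; the dashed line marks equal change. RPS18, RPS28, RPS27 and RPS30 lie far below the line, with A copies between -0.17 and 0.06, and RPS7, RPS14, RPS10 and RPS25 lie above it.

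The mix of copies differed between the strains in many pairs. The share of the A copy moved by at least 5 percentage points in 15 of 24 pairs, up in 9 and down in 6. Shares did not overlap between the libraries of the strains in 17 of all 24 pairs, these 15 among them. With only 2 libraries per strain, some pairs would be separated in this way without any strain difference. How many was not computed, so the count of 17 alone does not show that the mix of copies changed. The 15 were picked by the size of the move, so their lack of overlap is no separate check. Copies of equal coding length make up 22 of the 24 pairs, and in the other 2, RPS9 and RPS14, lengths differ by a codon or a pair of codons, so shares compare copies almost per length. The shift was largest in RPS18, at 25.2 points, followed by RPS28 at 13.6, RPS9 at 13.1 and RPS27 at 13.0, all toward the A copy. RPS9A had a share of 38.1% and 48.9% in the deletion libraries, against 35.4% and 26.9% in the parental libraries. Against this direction, RPS7A had a share of 41.3% and 41.2% in the deletion libraries, against 52.9% and 52.7% in the parental libraries, a move of -11.5 points. RPS10A had a share of 43.6% and 40.9% in the deletion libraries, against 47.2% and 56.4% in the parental libraries, a move of -10.3 points.

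The copy with the higher strain mean changed in 5 pairs. RPS16, RPS18 and RPS21 had more of the A copy in the deletion strain and more of the B copy in the parent, and RPS7 and RPS10 the reverse. The RPS21A share was 51.6% and 50.6% in the deletion libraries, against 42.0% and 43.5% in the parental libraries. For RPS16A it was 49.1% and 57.4% in the deletion libraries, against 45.1% and 43.1% in the parental libraries. The deletion libraries of RPS16 lay on either side of 50%, as did the parental libraries of RPS18 and RPS10. These differences in share were not tested.

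**Figure D3:**
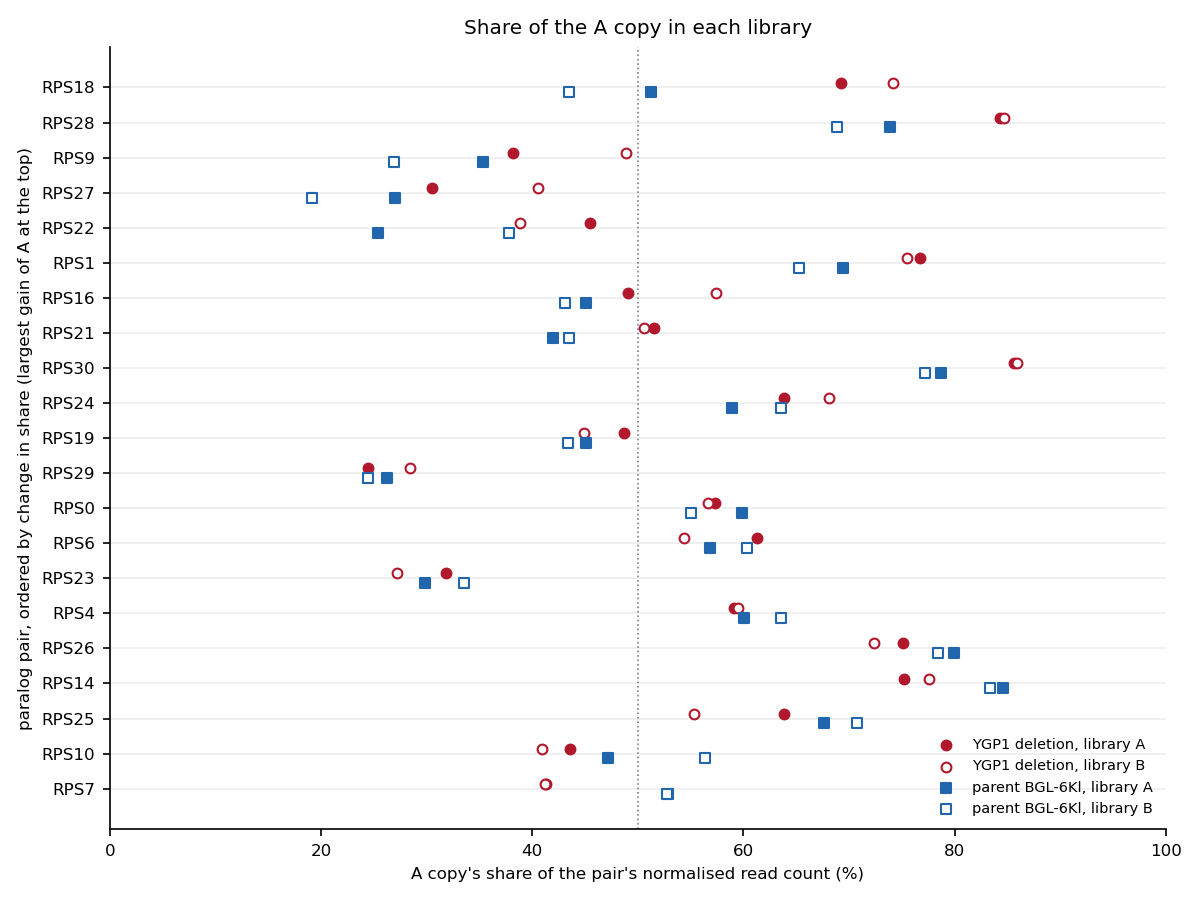
Share of the A copy in the normalised read count of 21 of the 24 pairs (percent), in deletion libraries A and B (circles) and parental libraries A and B (squares), ordered by the change between strain means with the largest gain of A at the top; the dotted line marks 50%. RPS18 shows the widest gap, with 69.2% and 74.2% in the deletion libraries, against 51.3% and 43.5% in the parental libraries.

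A and B copies as classes both stood lower. Of 24 B copies 13 passed, and in all 24 both deletion libraries lay below both parental ones. Of 24 A copies 11 passed and 18 were separated in that way. Over all features 10.3% passed as lower, and 33.0% of recovered features were so separated. The difference between the counts of A and B copies was not tested. By position, 11 of 23 head genes, 13 of 26 body genes and 5 of 8 platform genes passed as lower, with median log2 fold changes of -1.14, -1.21 and -1.08. Genes for proteins that bacteria also have numbered 24, of which 16 passed, with a median of -1.24. Genes for proteins without a bacterial counterpart numbered 33, of which 13 passed, with a median of -1.14. An intron in the coding sequence marks 37 genes in R64, and their median of -1.18 lay near the -1.13 of the 20 without one. The medians of all these groups lay between -1.24 and -1.08.

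The genes for the large subunit stood beside those for the small one. Of 80 large subunit genes 39 passed as lower and 0 as higher, 48.8% beside the 10.3% of all features, with a median log2 fold change of -1.17, against the small subunit's -1.18. Their summed level in the deletion strain was 49.0% of the parental sum. The limma fit called 60 of the 80 lower, where 14.9% of fitted features were, and 1 higher, RPL41A (adjusted p = 0.0380). RPL41A had 4944 and 7181 in the deletion libraries, against 3411 and 3776 in the parental libraries. In the authors' test it did not pass (adjusted p = 0.132 from the authors' deposited table). RPL8A had 302 and 277 in the deletion libraries, against 907 and 1544 in the parental libraries. It was 4.23-fold lower, with adjusted p = 0.0126 from the authors' deposited table. RPL16A was 3.75-fold and RPL2A 3.46-fold lower (adjusted p = 0.0414 and 0.00117 from the authors' deposited table). All 4 ubiquitin genes passed as lower, those fused to ribosomal proteins and the polyubiquitin gene UBI4 alike. The fused genes RPS31, RPL40A and RPL40B are already in the counts above, so only UBI4 adds to them. Library values of UBI4 could not be recovered. RPL40A, RPL40B and UBI4 had log2 fold changes of -1.37, -1.17 and -0.88, beside -1.27 for RPS31.

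Genes that help to build the small subunit passed in a share near that of all features, though most had a lower mean. Of 49 assembly factor genes 4 passed as lower and 0 as higher, 8.16% beside the 10.3% of all features, with a median log2 fold change of -0.48 and 42 lower means. These 4 were UTP6 and UTP13 of the early processome, the methyltransferase EMG1 and the late factor TSR1. UTP6 was 2.11-fold, UTP13 2.10-fold, EMG1 2.05-fold and TSR1 1.98-fold lower, with adjusted p from 0.0324 to 0.0365 from the authors' deposited table. Of the 49 genes, 33 had both deletion libraries below both parental ones and 4 had both above, where 33.0% of recovered features lay below. The limma fit called 10 of the 49 lower and 0 higher, where 14.9% of fitted features were called lower. Of 11 chaperones that escort single ribosomal proteins and factors linked to them, 1 passed as lower and 0 as higher, 9.09% beside the 10.3% of all features. It was RRB1, the chaperone of the large subunit protein Rpl3, which had 160.0 and 162 in the deletion libraries, against 379 and 402 in the parental libraries. Both deletion libraries lay below both parental ones in 5 of the 11 and above them in 3, TSR4, YAR1 and NAP1. TSR4 had 648 and 586 in the deletion libraries, against 361 and 369 in the parental libraries. The limma fit called TSR4 higher (adjusted p = 0.0260) and 1 of the 11 lower. Among 21 initiation factor genes that act on the small subunit 3 passed as lower and 0 as higher, 14.3% beside the same 10.3%, with a median of -0.34. SUI2, a subunit of the factor that brings the initiator transfer RNA, was 2.29-fold lower, the ribosome recycling factor RLI1 2.11-fold and TIF11, a factor for start codon scanning, 1.79-fold (adjusted p = 0.000862, 0.0159 and 0.0379 from the authors' deposited table).

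Among 26 regulators of ribosomal protein genes 9 passed as lower and 0 as higher, 34.6% beside the 10.3% of all features, with a median of -0.20. CRF1, a corepressor that displaces Ifh1 from Fhl1, had 1428 and 911 in the deletion libraries, against 3528 and 2896 in the parental libraries. The strains did not overlap, and CRF1 was 2.75-fold lower (adjusted p = 2.86e-05 from the authors' deposited table). Of the DNA-binding factors, ABF1 was 2.21-fold lower and TBF1 2.15-fold (adjusted p = 0.00206 and 0.00551 from the authors' deposited table). Also lower were RAP1, SFP1, STB3, GCN4 and REB1, at log2 fold changes of -0.97, -0.94, -0.89, -0.77 and -0.75. The list thus holds activators, such as SFP1, and repressors, such as CRF1 and STB3, that were lower together. Other regulators went the other way. Of 24 with recovered libraries, 13 had both deletion libraries below both parental ones, where 33.0% of recovered features did, and 5 had both above. Those 5 were IFH1, HMO1, TOR1, KOG1 and TAF1, none of which passed. IFH1 had 995 and 1145 in the deletion libraries, against 981 and 681 in the parental libraries.

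The small subunit proteins of the mitochondrial ribosome, a separate machine made from its own genes, did not follow. Of 34 genes 7 passed as higher and 2 as lower, with a median log2 fold change of 0.25. The 7 were 20.6% of the list, where 9.65% of all features passed as higher, and the 2 were 5.88%, beside 10.3% for lower. MRPS8 had 943 and 719 in the deletion libraries, against 243 and 225 in the parental libraries, and MRP13 had 2722 and 2126 in the deletion libraries, against 1032 and 796 in the parental libraries. Both were higher in each deletion library, 3.55-fold and 2.65-fold by the means (adjusted p = 4.99e-07 and 3.03e-05 from the authors' deposited table). MRPS35 was 2.40-fold higher and RSM25 2.12-fold (adjusted p = 0.00103 and 0.00333 from the authors' deposited table). The 2 that fell were EHD3, which is also an enzyme of valine breakdown, and YMR31, a subunit of the ketoglutarate dehydrogenase complex, at log2 fold changes of -0.93 and -0.83. The difference between the cytosolic and mitochondrial lists was not tested.

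**Figure D4:**
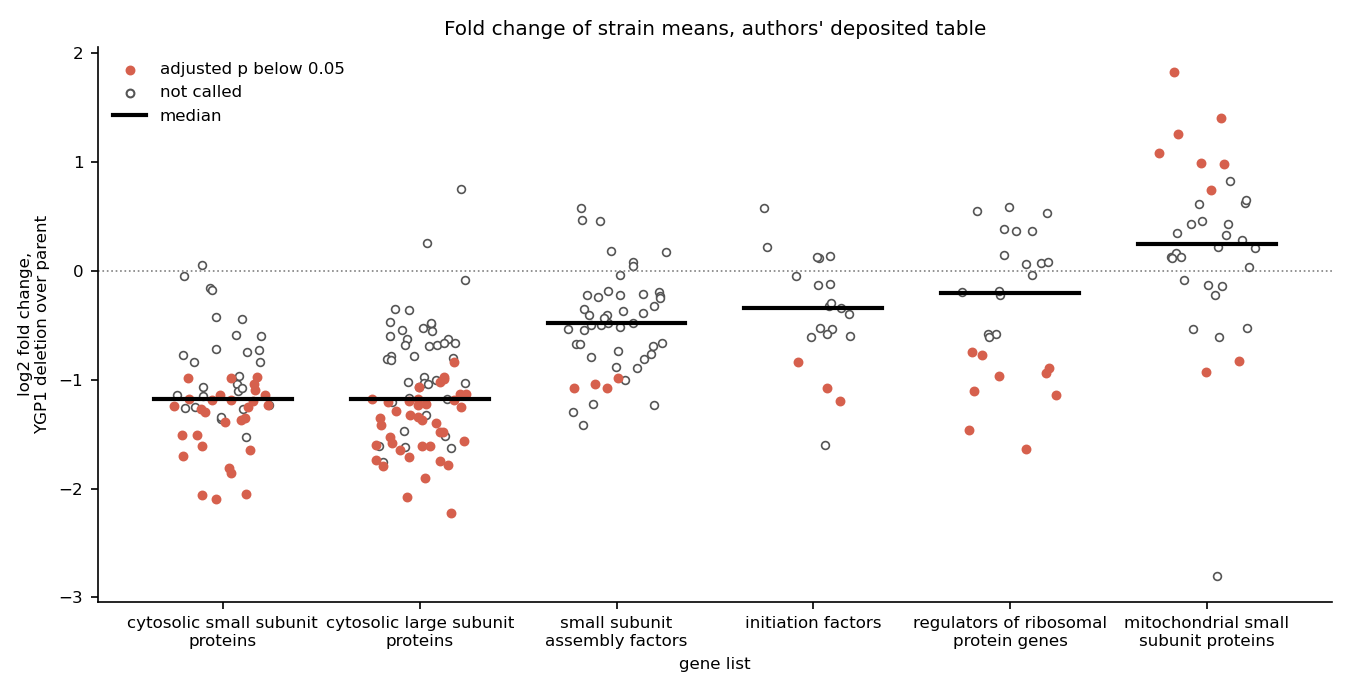
Log2 fold change (YGP1 deletion over parent) from the authors' deposited table for each gene of 6 lists; filled points passed at an adjusted p below 0.05, open points did not, and bars are medians. The medians were -1.18 for cytosolic small subunit proteins, -1.17 for large subunit proteins, -0.48 for assembly factors, -0.34 for initiation factors, -0.20 for regulators and 0.25 for mitochondrial small subunit proteins.

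The DNA before the start codons was read from RefSeq R64 to see what the lowest and highest genes share. The 150-base stretches below lie upstream of RPS3 and RPS9B (lowest fold changes), RPS4B (nearest the median), and RPS27A and RPS30A (highest), 5′ to 3′ on the strand of the gene. Capitals mark CCNTACA, a wide form of the site of the activator Rap1, which was chosen after the sequences were seen.
RPS3 (chrXIV:302380-302529, plus strand): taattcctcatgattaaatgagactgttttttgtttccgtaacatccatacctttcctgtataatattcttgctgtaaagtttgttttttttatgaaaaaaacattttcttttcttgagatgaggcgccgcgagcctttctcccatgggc
RPS9B (chrII:604217-604366, plus strand): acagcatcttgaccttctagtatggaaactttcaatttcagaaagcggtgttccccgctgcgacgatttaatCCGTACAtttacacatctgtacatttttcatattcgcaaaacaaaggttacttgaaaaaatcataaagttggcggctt
RPS4B (chrVIII:505881-506030, minus strand): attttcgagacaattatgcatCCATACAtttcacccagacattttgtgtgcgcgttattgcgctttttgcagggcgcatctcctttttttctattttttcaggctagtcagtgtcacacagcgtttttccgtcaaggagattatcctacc
RPS27A (chrXI:158313-158462, plus strand): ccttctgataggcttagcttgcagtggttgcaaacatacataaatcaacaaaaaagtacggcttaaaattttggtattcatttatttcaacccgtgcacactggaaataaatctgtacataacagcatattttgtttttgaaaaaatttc
RPS30A (chrXII:713303-713452, minus strand): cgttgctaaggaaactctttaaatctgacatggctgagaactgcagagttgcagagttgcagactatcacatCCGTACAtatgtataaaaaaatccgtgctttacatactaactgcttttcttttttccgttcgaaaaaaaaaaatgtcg
The wide Rap1 motif stood in the 500 bases before the start codon of RPS9B, RPS4B and RPS30A, and not in those of RPS3 or RPS27A. A match was thus found at either end of the order of fold changes, and so was its lack.

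On either strand of the 500 bases, CCNTACA was found before 33 of the 57 genes (57.9%), before 60% of the large subunit genes and before 15.9% of 6000 genes. The median log2 fold change was -1.18 in the 33 genes with a match and -1.17 in the 24 without. The tighter form ACCCNNACA, whose matches can overlap those of the wide form, stood before 31.6% of the 57 genes and 5.47% of all. GACGC, a motif of the forkhead factor Fhl1, stood before 47.4% against 30.4% of all. Motifs of ribosome assembly genes did not stand out, GATGAG being found before 22.8% against 28.3% of all genes and AAAATTTT before 8.77% against 12.4%. The stress element AGGGG was found before 22.8% against 34.1%, the Tbf1 motif TTAGGG before 3.51% against 12.5%, and a core of the Abf1 site before 21.1% against 22.7%. Runs of TTTTTTTT, on either strand, stood before 38.6% against 44.2%. A match is a run of letters and not a measured binding site.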

How the data were processed

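Total RNA (TRIzol, per the labels' protocols) from 2 libraries of each of 2 strains was sequenced after standard Illumina library preparation. The aligner, counter, genome build, annotation, strandedness and test were not given in any of the sources used here. A single table was deposited. Its strain columns are headed as read counts, and by their values this signal is the average over libraries of counts that the authors had divided by size factors. The authors also deposited a log2 fold change (deletion strain over parent), a p-value and adjusted p-value, and a call that is true below 0.05.

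Whole reads per library were recovered from the means within 0.55 units of the last digit. Size factors were 1.125 and 0.7968 for deletion libraries A and B and 1.155 and 0.9636 for parental libraries A and B. Of values shifted off the grid, 0.228% in the deletion strain and 0.649% in the parent had a solution. The design took the authors' calls as the result for strain means and limma for recovered libraries. limma 3.58.1 in R 4.3.3 was fitted to log2(normalised read count + 1) for features averaging at least 1 (moderated test with intensity trend, 2-sided, Benjamini-Hochberg over 6116 features), a scale that understates changes of low features. The procedures were tested on simulated data in which each feature varied independently. Shifts shared by many genes between libraries of a strain, as seen in the small subunit genes, were not simulated. The simulation therefore cannot show how such shifts affect the limma calls. Feature names matched R64 locus tags or gene symbols for 5886 of 6484 features, and R64 gave coding lengths, overlaps and the sequences shown.

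All 57 genes enter every count; values of some single genes and pairs are not reported here. By rule, library values are given for genes without a paralog, for the 6 lowest and 6 highest pair sums, for pairs with exactly 1 copy called and for the 4 largest shifts in share, and up to 4 called genes from each other list. The genes and lists were chosen with earlier results of these data known. RPL22A is not analysed here. No protein sequences were used.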

Additional observations from a re-analysis of the deposited data

How the results depend on the processing

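The median fold change of the small subunit genes stayed below 0 under every alternative run for it, but how many genes were called depended on the test and the libraries. By the authors' deposited adjusted p, 11 of 57 genes were called lower at a threshold of 0.01, 29 at 0.05 and 36 at 0.1. At 0.05 10.3% of all features were called lower, and their shares at 0.01 and 0.1 were not computed. The median log2 fold change of -1.18 was -1.03 with equal strain totals and -1.20 with the median of all features at 0. Leaving out single libraries gave -1.41 to -0.83, the smallest change being that without parental library B. The limma count of 45 was 16 without the intensity trend and 29 with the authors' adjusted p in its place, the last chosen after the data were seen. Without the trend 337 of all 6116 features were called lower, against 911 with it. Leaving out single libraries gave limma counts of 0 to 51, with 0 without either deletion library, where 0 of all 6116 features passed, and 20 without parental library B. Over all features 404 were called lower without parental library B and 692 without parental library A, against 911 with all 4. A lone library of a strain is then assumed to vary like the other strain's pair. With other scalings the limma count was 44 or 45, where 718 to 919 of all features were called lower. With other pseudocounts or filters it was 45 or 46, where 908 to 922 were. The 57 genes held 0.361% of the signal in the deletion strain and 0.736% in the parent once the 100 most abundant features were left out. The A share moved by at least 10 points in 6 pairs and by at least 2 points in 21, and with single libraries left out 14 to 18 pairs passed 5 points. Of 36 alternatives, 26 stayed near the value reported, and the cause of the other moves was not tested. No paired analysis was possible because the recovered libraries carry no replicate numbers. Shares of the summed signal could not be recomputed per library, since many abundant features had no unique solution, and the authors' test could not be rerun without single libraries.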

Other observations

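Of 6 genes for factors that sit on idle or stalled ribosomes, 3 passed as lower and 0 as higher in the authors' deposited table, where 10.3% of all features passed as lower. STM1, whose protein clamps empty ribosomes in starved cells, had 1185 and 999 in the deletion libraries, against 2315 and 2796 in the parental libraries. LSO2, needed to restart such ribosomes when food returns, had 1077 and 905 in the deletion libraries, against 1758 and 2110 in the parental libraries. TMA19, the homologue of the tumour protein TCTP, had 2939 and 2363 in the deletion libraries, against 4271 and 5264 in the parental libraries. Their log2 fold changes were -1.23, -0.96 and -0.85. The strains did not overlap in any of these 3 genes. The other 3 genes, LSO1, TMA7 and MBF1, did not pass, with log2 fold changes of 0.38, -0.54 and -0.37. Both deletion libraries lay above both parental libraries in LSO1 and below them in TMA7.

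The small nucleolar RNA genes inside introns of RPS22B and ASC1 had few reads. SNR44, in RPS22B, averaged 32.3 in the deletion strain, against 64.8 in the parent, and SNR24, in ASC1, had 1.33 in the deletion strain, against 15.8 in the parent. Neither passed (adjusted p = 0.443 and 0.115 from the authors' deposited table). SNR24 had 2.67 and 0 in the deletion libraries, against 13.0 and 18.7 in the parental libraries. For SNR44 the values were 47.1 and 17.6, against 47.6 and 82.0, so the nearest libraries were close. In limma SNR24 was called lower (log2 difference -3.12, adjusted p = 0.0442) and SNR44 was not (-1.09, adjusted p = 0.149).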
